A study of Homo sapiens with 12 samples.

Results

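The genes described here carry glucose into the cell, break it down to lactate, and feed the pentose phosphate pathway. They were chosen by name, as 34 symbols in the deposited count table of 23500 genes, with 1 entry per symbol (the entry with the highest summed count). The choice was made with earlier results of these data known, so member counts and medians set beside all genes are descriptions and not tests. All 34 passed the filter on low counts (a summed count of at least 10 over the libraries) and entered the fit with 17162 genes. RNA was sequenced from 12 libraries in 4 groups of 3. HEK293T, a widely used line of fetal kidney origin that carries adenoviral genes and the SV40 large T antigen, depends on methionine in its medium and stops growing on homocysteine instead. R1 is a single clone selected from HEK293T that grows on homocysteine, and its libraries carry R1 in their titles but HEK293T as their cell line. Each line was kept for 12 hours in medium with methionine (+Met) or in medium in which homocysteine replaced it (−Met+Hcy). No gene was targeted, and beyond a common base medium the groups share no other treatment. By the study's methods that base was high-glucose DMEM lacking methionine and cystine, with dialyzed serum and added vitamin B12, glutamine and cysteine.

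Glycolysis splits glucose into 3-carbon sugars in its upper steps and makes pyruvate in its lower steps, and lactate dehydrogenase turns pyruvate into lactate. The pentose phosphate pathway leaves glycolysis at glucose 6-phosphate. Its oxidative steps make NADPH, and its non-oxidative steps make ribose 5-phosphate and return carbon to glycolysis. Many steps are served by isozymes from separate genes, whose proportions differ between tissues, and transformed lines such as HEK293T are known for high glucose use. The labels say nothing of these genes, and the comparisons below are those of the study's design: the response of each line to the medium, the difference of the responses, and the difference of the lines in +Met.

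Summed counts ranged from 12664158 to 18771349 per library. Replicate 3 of R1 −Met+Hcy stood apart. The chi-square per gene was 205 and 236 against its 2 companions and 7.13 to 90.1 for all other replicate pairs, and its differences from its group followed GC content (Spearman's rho across 10982 genes, −0.74). The same rho was 0.60 and 0.73 in its companions, whose group mean includes it, and −0.34 to 0.54 in the other groups. The median GC content of the members' transcripts was 53.5%, against 49% over the genes tested. Results are therefore given with and without that library, which also sets the spread for every comparison, since the 4 groups shared an estimate (common dispersion 0.109 with it and 0.0349 without it). Markers of HEK293 lines summed to 120 to 274 CPM (counts per 1000000 counts of the library) in every library, those of leukocytes and endothelium to at most 2.53 CPM, those of basal breast epithelium to 2.7 to 19.1 CPM and those of fibroblasts to 14 to 47.9 CPM. The labels do not say whether replicates were separate cultures, so p-values measure only the spread between these libraries. In bulk libraries, fewer cells that express a gene and less of its RNA per cell cannot be told apart.

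Levels below are CPM on the column sums, n = 3 libraries per group, given in replicate order. Log2 fold changes (log2FC) with their standard errors (SE) come from edgeR's quasi-likelihood test with TMM scaling, in which a gene passed at a Benjamini-Hochberg adjusted p under 0.05 over all genes tested. The scalings differ. On column sums alone, the median log2FC of all genes between the media in HEK293T cells moved from 0.03 to 0.33, and between the lines in +Met from 0.02 to 0.37, so a ratio of CPM values exceeds the fitted fold in both. Relative to all genes the members' median was the same under either scaling, at −0.48 and −0.19.

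These were abundant transcripts. The members' median level was 99.7 CPM against 16.9 CPM over the genes tested, 29 of the 34 lay above that median, and 7 were in the top 1% of genes. Per kilobase of transcript, the highest levels in HEK293T +Met were those of GAPDH (2214 CPM per kilobase), LDHB (1176), ENO1 (1002), ALDOA (788) and PKM (633). All of them act on the path from glucose to lactate. At the low end stood H6PD (0.364), SLC16A3 (0.499) and PFKFB4 (0.564). Together the members took 1.37% ± 0.0546 (SD, n = 3) of all counts in HEK293T +Met and 1.1% ± 0.0515 in −Met+Hcy. In R1 they took 1.46% ± 0.0454 and 1.13% ± 0.288, the last from 0.801% to 1.34%, with replicate 3 lowest.

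Replacing methionine in HEK293T cells was followed by 1 higher and 5 lower members. SLC2A14, a glucose carrier gene, rose about 6.64-fold, while PFKP, LDHA, ALDOA, LDHB and TALDO1 fell by 0.63 to 1.94 on the log2 scale. Of all genes tested, 4.25% passed as higher and 2.78% as lower in this comparison. On column sums alone the same test called 1 member higher (SLC2A14) and 2 lower (PFKP and LDHA). The share of all genes passing under that scaling is not given. The median log2FC of the members was −0.45, against 0.03 over all genes tested, and 25 of 34 lay below 0. By library the median was −0.33, −0.45 and −0.46 against the +Met mean. Past a 2-fold change as well, SLC2A14 was higher, and PFKP and LDHA were lower (background 3.04% and 1.59%).

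**Figure D1:**
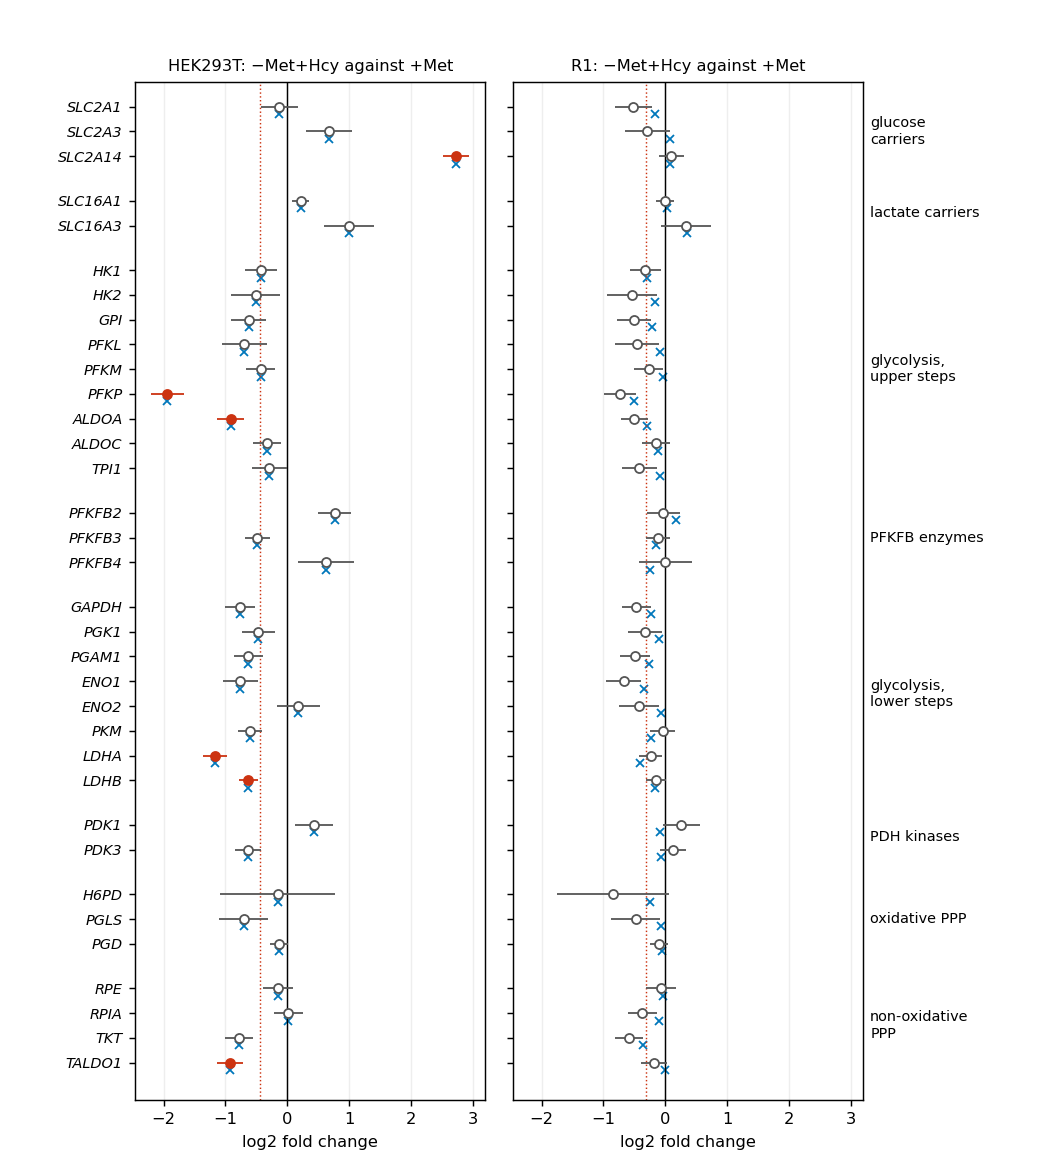
Log2 fold change of each member between −Met+Hcy and +Met (x axis) in HEK293T (left) and R1 (right), grouped by role. Circles are fitted values with SE bars, red where the adjusted p was under 0.05, crosses are the values without R1 −Met+Hcy replicate 3, and the dotted line is the members' median. Most members lay left of 0 in both lines, with SLC2A14 at 2.73 in HEK293T and 0.10 in R1.

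Among the glucose carriers, SLC2A14 (GLUT14; chr12:7812512-7891148, minus strand, GRCh38) had the largest change of any member. It stood at 39.6, 44.5 and 34.3 CPM in HEK293T +Met and at 304, 329 and 328 CPM in −Met+Hcy, with no overlap. The log2FC was 2.73 (SE 0.21, adjusted p = 0.000107), and it passed with each of the 6 HEK293T libraries left out (adjusted p at most 0.00229). Its neighbour SLC2A3 (GLUT3, a high-affinity carrier) stood at 4.19, 7.06 and 5.20 CPM and then at 12.3, 11.2 and 8.55 CPM, again with no overlap, yet its log2FC of 0.67 (SE 0.37, adjusted p = 0.311) did not pass. Without R1 −Met+Hcy replicate 3 it did (adjusted p = 0.0281). SLC2A1 (GLUT1, the basal carrier of most cells) stood at 36.9 to 42 CPM and at 42.1 to 46.5 CPM. Its log2FC was −0.13 (adjusted p = 0.846), and 0.17 on column sums alone.

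SLC2A14 and SLC2A3 are similar copies on the same strand of chromosome 12. Of the 31-base words in the GENCODE transcript of SLC2A14, 43.5% also occur in SLC2A3, and 38.2% of those of SLC2A3 occur in SLC2A14. How the authors' counting divided such reads is uncertain, so the split between the copies is too. Per kilobase, SLC2A14 took 88.9% ± 2.07 of the pair's level in HEK293T +Met and 97.1% ± 0.616 in −Met+Hcy (SD, n = 3).

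The promoter windows are shown for SLC2A14, the member with the highest rise, and for LDHA, whose fall held with each HEK293T library left out. PFKP fell further and its call held as well, but its windows are not printed. Each is the 250 bases before a transcript start in RefSeq (GRCh38.p14), with matches to ACGTG on either strand in capitals. ACGTG is the core of the hypoxia response element, and every CACGTG, an E-box, holds it on both strands.
SLC2A14, chr12:7872916-7873165, minus strand: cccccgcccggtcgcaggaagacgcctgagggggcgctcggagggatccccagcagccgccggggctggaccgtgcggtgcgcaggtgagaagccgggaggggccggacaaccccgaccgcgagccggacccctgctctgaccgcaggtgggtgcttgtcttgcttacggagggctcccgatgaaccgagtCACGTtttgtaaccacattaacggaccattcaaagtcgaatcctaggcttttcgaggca
LDHA, chr11:18394313-18394562, plus strand: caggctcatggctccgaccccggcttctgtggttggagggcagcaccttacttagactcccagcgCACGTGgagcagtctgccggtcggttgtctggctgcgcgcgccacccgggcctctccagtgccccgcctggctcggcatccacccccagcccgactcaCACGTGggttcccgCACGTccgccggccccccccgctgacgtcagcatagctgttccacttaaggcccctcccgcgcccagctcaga
The SLC2A14 window held 1 match and this LDHA window 5, counted on both strands, with 2 E-boxes in the latter. LDHA has a second window in the table, chr11:18396101-18396350, which held 0 matches to either, and the window to print was picked with the matches of both known. The PFKP window at chr10:3068939-3069188 held 1 match to ACGTG and 0 E-boxes, and the other PFKP windows held 0 of either. The LDHA window shown is thus not typical of the members that fell. Windows were found for 31 of the 34 members (not for SLC2A3, PFKFB2 and SLC16A1), 57 windows in all. ACGTG occurred in 35.1% of these windows and in 20.2% of the 22199 promoters in the table, and CACGTG in 10.5% and 7.37%. A member can have several windows, and by gene 17 of the 31 members held ACGTG. The share by gene over all genes is not given, so that count cannot be set against the 20.2% of promoters. Of the members that fell, PFKP, ALDOA and LDHA held it, and LDHB and TALDO1 did not. SLC2A14, which rose, held it, as did members that did not pass, among them HK2, GPI and TPI1.

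The lactate carriers did not pass. SLC16A1 (MCT1, a carrier of lactate and pyruvate) stood at 228, 261 and 238 CPM in HEK293T +Met and at 355, 354 and 326 CPM in −Met+Hcy, with no overlap on this scale. Its fitted log2FC was 0.22 (SE 0.14, adjusted p = 0.396), and 0.51 on column sums alone. SLC16A3 (MCT4, the lactate exporter of highly glycolytic cells) had 15 to 27 counts per library in +Met and 45 to 56 in −Met+Hcy, with a log2FC of 0.99 (SE 0.40, adjusted p = 0.165), and passed without R1 −Met+Hcy replicate 3 (adjusted p = 0.0411). A second entry named SLC16A1 held 34.8% of the kept entry's counts in HEK293T +Met and 36.2% in −Met+Hcy.

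All 9 members of the upper steps had a log2FC below 0 in HEK293T cells, from −1.94 to −0.29, and 2 passed. PFKP encodes the platelet form of phosphofructokinase, the committing step of glycolysis. It stood at 47.2, 48.3 and 41.1 CPM in +Met and fell to 16.5, 16.1 and 11.3 CPM in −Met+Hcy (log2FC −1.94, SE 0.26, adjusted p = 0.0021). The groups were far apart, and the call held with each HEK293T library left out (adjusted p at most 0.0169). The other phosphofructokinase genes had smaller values that did not pass, PFKL −0.70 (adjusted p = 0.281) and PFKM −0.43 (adjusted p = 0.307). Per kilobase, PFKP made up 19.6% ± 0.974 of the 3 genes' level in +Met and 8.31% ± 0.851 in −Met+Hcy, and PFKM 51% ± 3.77 and 62.4% ± 2.79. An exact two-sided permutation test on the PFKP share gave p = 0.1, the smallest that 3 against 3 libraries can give.

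ALDOA, the main aldolase of these cells, stood at 1429, 1255 and 1193 CPM and fell to 836, 839 and 843 CPM (log2FC −0.92, SE 0.22, adjusted p = 0.0259). The groups did not overlap, but the call was lost with any 1 of the 6 HEK293T libraries left out (adjusted p from 0.0637 to 0.117). ALDOA shares 89.6% of its 31-base words with another GENCODE entry, so its counts are uncertain as a single gene. The hexokinases HK1 and HK2, which trap glucose in the cell, had log2FC values of −0.42 and −0.51, GPI (glucose 6-phosphate isomerase) of −0.63, ALDOC of −0.33 and TPI1 (triose phosphate isomerase) of −0.29, all with adjusted p of 0.210 or more. TPI1 was at 0.01 on column sums alone.

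**Figure D2:**
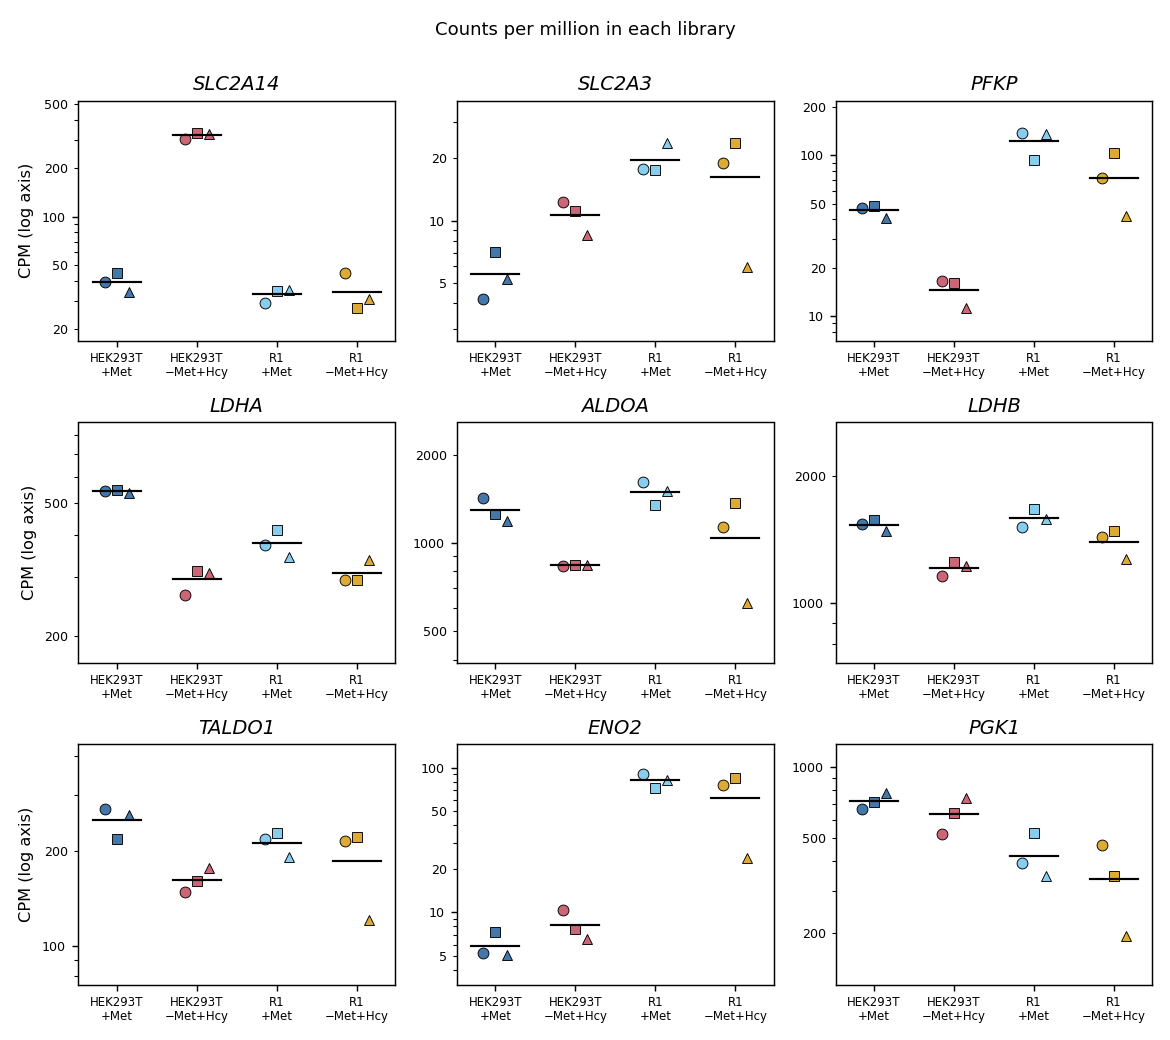
CPM on a log axis for 9 members in the 4 groups. Circles, squares and triangles are replicates 1, 2 and 3, and the bar is the group mean. SLC2A14 was high in HEK293T −Met+Hcy alone among the groups, ENO2 was high in both R1 groups, and the R1 −Met+Hcy triangle lay below its companions for these genes other than SLC2A14 and LDHA.

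Of the 8 members of the lower steps, 7 had a log2FC below 0 and 2 passed, both of them lactate dehydrogenase genes. LDHA encodes the muscle-type subunit and stood at 545, 546 and 537 CPM in HEK293T +Met. It fell to 266, 312 and 309 CPM in −Met+Hcy (log2FC −1.17, SE 0.19, adjusted p = 0.00476), with the groups far apart and the call kept with each HEK293T library left out (adjusted p at most 0.0322). A second entry with the name LDHA held identical counts and was counted once. How reads were divided between the entries is uncertain. The LDHA levels, and the LDHA shares of the pair given here and below, may therefore be understated. LDHB, the heart-type subunit, went from 1538, 1574 and 1484 CPM to 1159, 1254 and 1227 CPM (log2FC −0.63, SE 0.16, adjusted p = 0.0325). That call was lost with any 1 of the 6 libraries left out (adjusted p from 0.0889 to 0.128), and 75.5% of the 31-base words of LDHB occur in other entries. Per kilobase, LDHA made up 17.1% ± 0.304 of the pair in +Met and 12.4% ± 0.557 in −Met+Hcy, without overlap (exact two-sided permutation test, p = 0.1, again the smallest possible).

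The other lower-step enzymes had values below 0 that did not pass. GAPDH, the dehydrogenase that opens the lower steps, was at −0.76 (adjusted p = 0.0739), ENO1 (enolase) at −0.76 (0.142), PGAM1 (phosphoglycerate mutase) at −0.63 (0.137), PKM (pyruvate kinase) at −0.61 (0.086) and PGK1 (phosphoglycerate kinase) at −0.47 (0.339), each number in parentheses being an adjusted p. ENO2, the neuronal enolase, was at 0.18 (adjusted p = 0.806). Without R1 −Met+Hcy replicate 3, GAPDH, PGAM1, ENO1 and PKM passed as well (adjusted p from 0.00177 to 0.0105).

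The 3 members that make and remove fructose 2,6-bisphosphate, the activator of phosphofructokinase, gave values in both directions. PFKFB2 stood at 7.95, 14.9 and 11.3 CPM in +Met and at 28.3, 22 and 20.6 CPM in −Met+Hcy, without overlap (log2FC 0.77, SE 0.27, adjusted p = 0.117), PFKFB3 was at −0.48 (adjusted p = 0.177) and PFKFB4, at under 5 CPM, at 0.63 (adjusted p = 0.449). Per kilobase, the PFKFB2 share of the 3 went from 14.6% ± 1.99 to 28% ± 2.07. The pyruvate dehydrogenase kinases, which keep pyruvate out of the mitochondrial citrate cycle, were at 0.43 for PDK1 (adjusted p = 0.434) and −0.63 for PDK3 (adjusted p = 0.1).

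Along the pentose phosphate pathway, 1 of 7 members passed. TALDO1, transaldolase, stood at 272, 218 and 260 CPM in +Met and fell to 148, 160 and 176 CPM in −Met+Hcy (log2FC −0.92, SE 0.21, adjusted p = 0.0222). The groups did not overlap, and the call was lost with 5 of the 6 HEK293T libraries left out in turn (adjusted p from 0.0575 to 0.103), the exception being +Met replicate 2. TKT, transketolase, its partner in the non-oxidative steps, went from 345, 328 and 304 CPM to 249, 234 and 213 CPM (log2FC −0.79, SE 0.23, adjusted p = 0.0597). RPE and RPIA, which interconvert the pentose phosphates, were at −0.15 and 0.02 (adjusted p = 0.767 and 0.978). Of the oxidative steps, PGLS (lactonase) was at −0.71 (adjusted p = 0.317), PGD (6-phosphogluconate dehydrogenase) at −0.13 (adjusted p = 0.65) and H6PD, the enzyme of the endoplasmic reticulum, at −0.15 with an SE of 0.93. RPE, PGD and H6PD lay above 0 on column sums alone.

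R1 −Met+Hcy replicate 3 is not part of the HEK293T comparison but decided how many members passed in it. Without that library 4 members were higher (SLC2A14, SLC2A3, SLC16A3 and PFKFB2, background 15.2%) and 14 lower (background 12.5%), among them all 6 named above. The added lower members were GPI, PFKL, GAPDH, PGAM1, ENO1, PKM, PDK3, PGLS and TKT, while the members' median stayed at −0.45.

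In R1 cells no member passed in either direction by edgeR's quasi-likelihood test or by DESeq2. Of all genes, 0.00583% passed as higher and 0% as lower by edgeR. The share of all genes passing by DESeq2 is not given, so its result has no background here. At an unadjusted p under 0.05, 4 members were lower and 0 higher by edgeR, and 6 and 0 by DESeq2. The share of all genes at that unadjusted threshold is not given here or below. Counts at that threshold therefore cannot be read against a background. The members' median log2FC was −0.30 (all genes −0.02), and 29 of 34 lay below 0. By library the median was −0.17, −0.11 and −0.88, so the third value stood apart, and without that library the members' median was −0.11 (all genes 0.00), with no member called (background 0.0176% and 0%).

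PFKP stood at 137, 94.1 and 135 CPM in R1 +Met and at 72.9, 104 and 42.3 CPM in −Met+Hcy, with overlapping groups (log2FC −0.73, SE 0.25, adjusted p = 0.622). LDHA stood at 375, 416 and 345 CPM and at 293, 295 and 338 CPM, just without overlap on column sums alone. Its fitted log2FC was −0.24 (SE 0.19, edgeR adjusted p = 0.685). Here replicate 3 was the highest of the −Met+Hcy libraries, unlike for ALDOA, where it stood at 625 CPM beside 1132 and 1374 CPM. SLC2A14 overlapped fully, at 29.1, 34.8 and 35.1 CPM and at 44.8, 27.2 and 30.9 CPM (log2FC 0.10, SE 0.20, adjusted p = 0.870). H6PD, at 9.33 and 11.5 CPM in the first −Met+Hcy libraries, was at 0 counts in replicate 3, and its log2FC of −0.85 (SE 0.90) became −0.26 (SE 0.30) without it. After removal of the GC trend from every library, all 12 kept, the members' median in R1 was −0.21 (all genes 0.02), and no member passed.

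**Figure D3:**
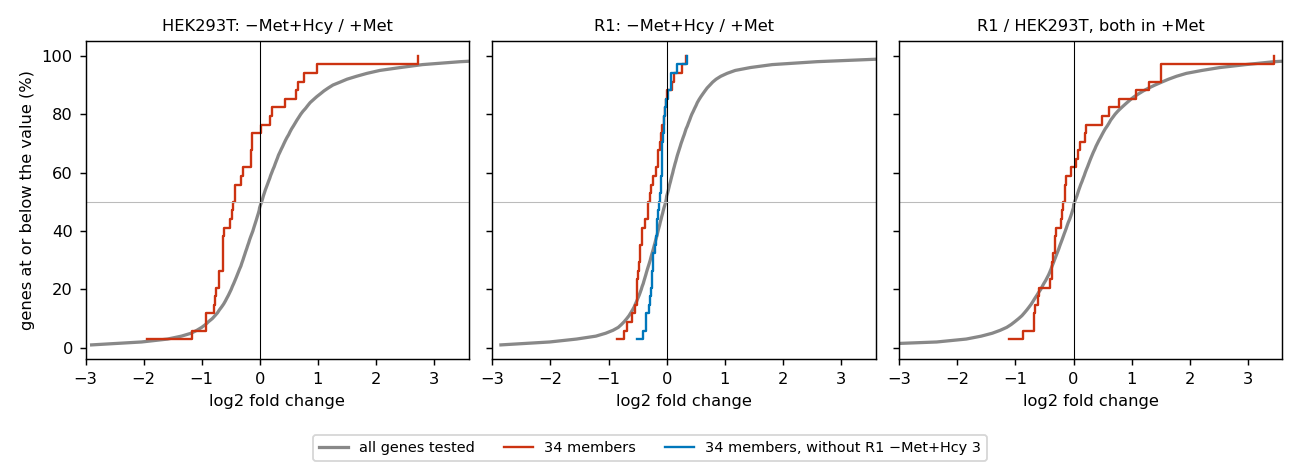
Cumulative distributions of the log2 fold change (x axis) over all 17162 genes tested (grey) and over the 34 members (red), with the members refitted without R1 −Met+Hcy replicate 3 in blue for R1. The members' curve crossed 50% at −0.45 in HEK293T, −0.30 in R1 and −0.17 between the lines (0.19 on column sums alone), there left of the curve of all genes under the TMM scaling shown.

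The responses of the lines were compared directly, as the R1 log2FC minus the HEK293T log2FC. SLC2A14 alone among the members passed, at −2.64 (SE 0.29, adjusted p = 0.014), where 0.0583% of all genes passed in this direction and 0% in the other. The call was lost with 7 of the 12 libraries left out in turn (adjusted p from 0.054 to 0.107), while the value stayed between −2.82 and −2.46. For PFKP the difference was 1.21 (SE 0.36, adjusted p = 0.328), for LDHA 0.93 (SE 0.26, adjusted p = 0.312) and for TALDO1 0.74 (SE 0.29, adjusted p = 0.448), so a smaller fall in R1 was not shown for these. Without R1 −Met+Hcy replicate 3, PFKP passed at 1.43 (SE 0.27, adjusted p = 0.0251), and LDHA was at 0.75 (adjusted p = 0.088). The background was then 0.398% higher and 1.28% lower. The members' median difference was 0.11, and −0.19 on column sums alone, where the median over all genes moved from −0.06 to −0.38.

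In +Met, the 12-hour arm that kept methionine, R1 differed from HEK293T in 6 members. ENO2, PFKP and SLC2A3 were higher and PGK1, LDHA and SLC16A1 lower, where 5.69% of all genes passed as higher and 4.48% as lower. On column sums alone 6 were higher and 1, LDHA, was lower. That scaling also raised the median of all genes, and no share of all genes is given for it, so these counts have no background. The median of the members was −0.17, against 0.02 over all genes (0.19 against 0.37 on column sums alone). This comparison shares its HEK293T +Met libraries with the HEK293T medium comparison, so the values of the 2 are not independent. With a 2-fold change required as well, ENO2, PFKP and SLC2A3 (background 4.71%) and PGK1 (background 2.95%) passed.

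**Figure D4:**
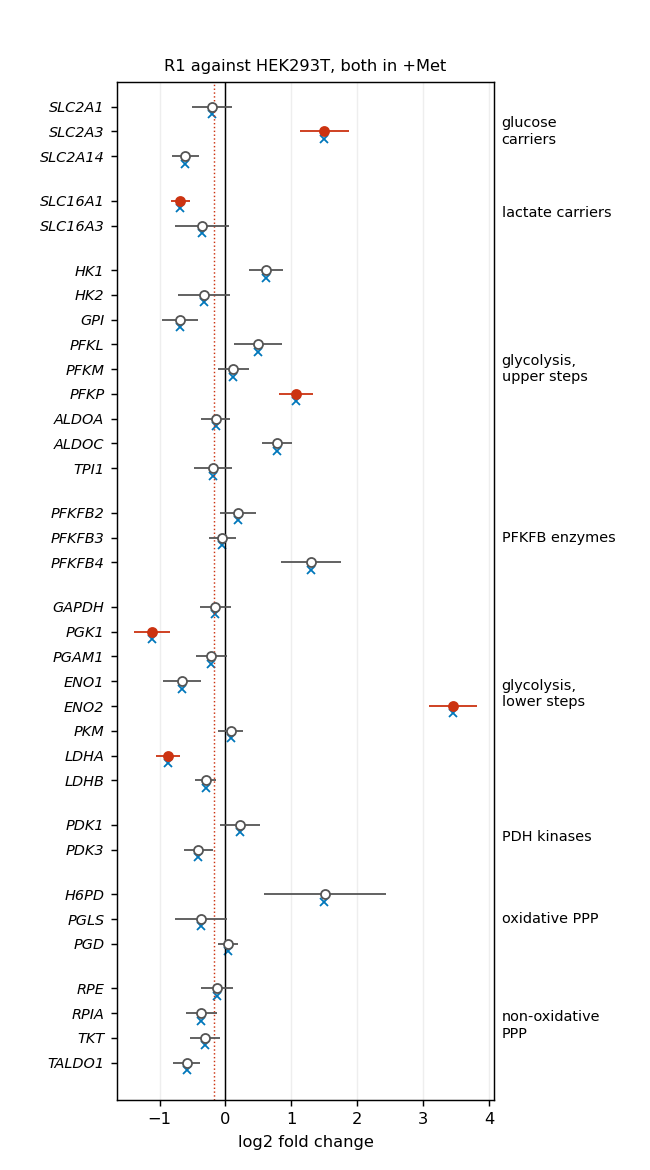
Log2 fold change of each member in R1 against HEK293T, both in +Met (x axis), with SE bars, red circles at an adjusted p under 0.05, crosses for the fit without R1 −Met+Hcy replicate 3 and the members' median dotted. ENO2 stood far to the right at 3.45, and PGK1 was lowest at −1.11.

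ENO2 had the largest difference between the lines. It stood at 5.26, 7.33 and 5.08 CPM in HEK293T +Met and at 90.5, 72.7 and 82.4 CPM in R1 +Met (log2FC 3.45, SE 0.36, adjusted p = 0.000244), about 10.9-fold on the fitted scale, and it passed with each library of the comparison left out. ENO1 remained the main enolase in R1, and the ENO2 share per kilobase went from 0.257% ± 0.0592 to 4.21% ± 0.229. ENO1 itself was at −0.66 (SE 0.29, adjusted p = 0.171). In −Met+Hcy the ENO2 share of R1 was 4.9% ± 0.294, so it was also high in replicate 3, where the ENO2 level was 24 CPM.

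PFKP was at 45.5 ± 3.89 CPM in HEK293T +Met and at 122 ± 24.5 CPM in R1 +Met (SD, n = 3; log2FC 1.07, SE 0.25, adjusted p = 0.0205), and its share of the phosphofructokinases went from 19.6% to 29.6% ± 0.841. SLC2A3 was at 5.48 ± 1.45 and 19.7 ± 3.6 CPM (log2FC 1.50, SE 0.37, adjusted p = 0.0257). Neither pair of groups overlapped. Both calls were lost with 5 of the 6 libraries left out in turn (adjusted p from 0.0659 to 0.0946 and from 0.0514 to 0.111), R1 +Met replicate 2 being the exception. SLC2A14, the copy of SLC2A3, was at −0.61 (SE 0.20, adjusted p = 0.0775).

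PGK1, on the X chromosome, was at 719 ± 55.1 CPM in HEK293T and 423 ± 94.5 CPM in R1 (log2FC −1.11, SE 0.28, adjusted p = 0.0251). LDHA was at 542 ± 4.99 and 378 ± 35.6 CPM (log2FC −0.87, SE 0.19, adjusted p = 0.013), and its share of lactate dehydrogenase at 12.2% ± 0.796 in R1 lay beside the 12.4% of HEK293T −Met+Hcy. SLC16A1 was at 242 ± 16.6 and 192 ± 1.47 CPM (log2FC −0.68, SE 0.14, adjusted p = 0.0107). The 3 pairs of groups did not overlap. Left out in turn, 5 of the 6 libraries ended the PGK1 call (adjusted p from 0.062 to 0.113), 4 the LDHA call (0.0521 to 0.0702) and 2, R1 +Met replicates 1 and 3, the SLC16A1 call (0.0506 and 0.0644). The SLC16A1 call was also lost with the GC trend removed and on column sums alone, and the PGK1 call on column sums alone. For PGK1 only R1 +Met replicate 2 could be left out with the call kept, and for LDHA that library and HEK293T +Met replicate 2.

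**Figure D5:**
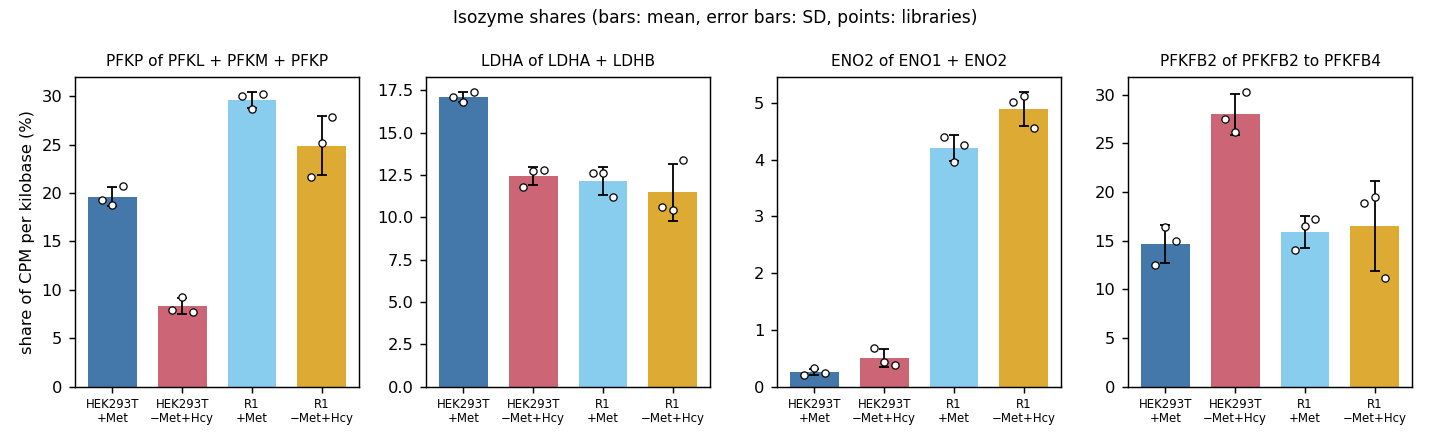
Share of each isozyme in its family's summed level per kilobase (y axis, percent, from 0) in the 4 groups, with bars for the mean, error bars for the SD and points for the 3 libraries. PFKP and LDHA shares were lower in HEK293T −Met+Hcy than in +Met, the PFKFB2 share was higher there, and the ENO2 share was high in both R1 groups.

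The isozyme shares set these values side by side. PFKP made up 24.9% ± 3.06 of phosphofructokinase in R1 −Met+Hcy, below its R1 +Met share in each library but above both HEK293T groups. HK2, the inducible hexokinase, made up 19.4% ± 1.25 of the HK1 and HK2 level in HEK293T +Met and 11.1% ± 0.643 in R1 +Met, with no overlap, and 18.3% ± 1.64 in HEK293T −Met+Hcy, where the groups overlapped. ALDOC, the brain aldolase, made up 1.03% to 2.63% of the aldolases in the group means and passed in no comparison by edgeR with TMM scaling and all 12 libraries. Between the lines in +Met it passed as higher in R1 by DESeq2 and on column sums alone. Each of these shares, compared by exact permutation of 3 against 3 libraries, could reach no p below 0.1.

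Without R1 −Met+Hcy replicate 3, R1 and HEK293T in +Met differed in 6 higher (background 17%) and 9 lower members (background 15.7%), including all 6 above. The additions were PFKFB4, ALDOC and H6PD among the higher and GPI, ENO1, SLC2A14, PDK3, RPIA and TALDO1 among the lower.

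The genes around the pathway that are not among the 34 were taken from a list of 63, of which 53 were tested. In HEK293T cells 6 of them were higher and 4 lower, where 4.25% and 2.78% of all genes passed. In R1 none passed in either direction (edgeR, at an unadjusted p under 0.05 3 and 2), and between the lines in +Met 5 were higher and 3 lower (background 5.69% and 4.48%). Without R1 −Met+Hcy replicate 3 the counts were 13 and 10 in HEK293T (background 15.2% and 12.5%), 0 and 0 in R1, and 14 and 9 between the lines (background 17% and 15.7%). TXNIP, an arrestin that restrains glucose uptake, rose from 12.1, 12.3 and 10.3 CPM to 67.6, 66.9 and 69.2 CPM in HEK293T cells (log2FC 2.26, SE 0.24, adjusted p = 0.000537). Its relative ARRDC4 rose by 1.04 (adjusted p = 0.0229), and MLXIPL, which encodes the glucose-responsive factor ChREBP, fell by 1.77 (adjusted p = 0.0107) from 6.24 to 6.64 CPM down to 1.53 to 3.23 CPM. Of the genes that govern the entry of pyruvate into the citrate cycle, PDP1, the phosphatase that activates pyruvate dehydrogenase, rose by 1.39 (adjusted p = 0.00259), and MPC2, a subunit of the pyruvate carrier, fell by 1.01 (adjusted p = 0.0432). PDK4, a further pyruvate dehydrogenase kinase, also passed as higher, but on 1, 4 and 2 counts against 17, 32 and 21, and no fold is given for it. SLC2A12, another glucose carrier, rose by 1.65 (adjusted p = 0.0258), and PGM1, which links glycogen to glucose 6-phosphate, fell by 1.09 (adjusted p = 0.00598).

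Between the lines in +Met, ENO3, the muscle enolase, was higher in R1 by 3.20 (SE 0.47, adjusted p = 0.00174), at 23.9 to 28.4 CPM against 1.47 to 3.08 CPM. LDHD, a D-lactate dehydrogenase (log2FC 2.60, adjusted p = 0.0195), SLC2A11, a glucose and fructose carrier (log2FC 3.09, adjusted p = 0.0317, at most 10 counts per HEK293T library), and PDK4 were higher as well. PDK4 had 15 to 41 counts per R1 +Met library.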

How the data were processed

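RNA sequencing of HEK293T and R1 cells gave 12 libraries, 3 per group. According to the study's methods and the submitters' processing notes, the authors estimated transcript abundance with kallisto 0.48.0 on GRCh38, summed it per Ensembl gene, and deposited the estimated counts as whole numbers, unnormalized. The content of the kallisto index and the kit's strandedness are not given in the sources used here. Estimates of this kind divide reads among similar transcripts, which bears on paralogs and pseudogenes. Of 23500 rows, 868 held no symbol.

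The members and gene lists were chosen with earlier results of these data known. All 34 members were named. Of the other lists, a gene was named where it passed (adjusted p under 0.05), changed more than 2-fold in any comparison and averaged at least 1 CPM in a group. Genes with a summed count of at least 10 (17162) were fitted with edgeR 4.0.16 (R 4.3.3; TMM, quasi-likelihood F-test, 4 groups, 8 residual degrees of freedom, Benjamini-Hochberg over all genes tested). The SE was the log2 fold change divided by the square root of F. The fits were tested on simulated data. Alternatives were DESeq2 1.42.0, other scalings and filters, a replicate block, robust spread, the 6 libraries of a comparison, removal of GC trends, identical rows merged, and each library left out. Shares were compared by exact permutation tests, 48 in all, without adjustment. Coordinates, lengths and 31-base words came from GENCODE v44 (GRCh38), and promoters from RefSeq.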

Additional observations from a re-analysis of the deposited data

Results flagged for a closer look

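The difference of the responses was past the test for SLC2A14, a glucose carrier gene with a similar neighbour. Its R1 response minus its HEK293T response was −2.64 on the log2 scale (SE 0.29, edgeR adjusted p = 0.014), from 0.10 in R1 and 2.73 in HEK293T. All 3 HEK293T −Met+Hcy libraries lay above every other library. The value ranged from −2.82 to −2.46 with each library left out in turn, and passed in 5 of those 12 fits.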

How the results depend on the processing

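No called member changed direction under any alternative, and over the 34 members in the 4 comparisons 2393 values stayed on the same side of the threshold, 100 gained and 57 lost a call. Shares of all genes are given above only for the main fit and the fit without R1 −Met+Hcy replicate 3. Member counts under the other alternatives therefore have no background beside them. In HEK293T, 4 members were higher on the 6 libraries of the comparison and with the GC trend removed without R1 −Met+Hcy replicate 3, and 1 to 4 with a library left out. Lower members there numbered 9 by DESeq2, 2 on column sums alone, 16 on the 6 libraries, 12 with the GC trend removed, 17 with it removed without that replicate, and 2 to 14 with a library left out. The members' median there was −0.16 on column sums alone and −0.51 to −0.35 with a library left out. For the difference of responses, higher members numbered 1 by DESeq2 (LDHA), 1 with the GC trend removed, 2 with it removed without that replicate, and 0 to 1 with a library left out, and lower members 0 to 1. The median difference reversed to −0.19 on column sums alone and ran from −0.07 to 0.33 with a library left out, below 0 without R1 −Met+Hcy replicate 1 (−0.01) or 2 (−0.07). Between the lines in +Met, higher members numbered 5 by DESeq2, 6 on column sums alone, on the 6 libraries and with the GC trend removed without that replicate, and 1 to 6 with a library left out. Lower members numbered 6, 1, 7 and 10 in the same order, 7 with the GC trend removed (without SLC16A1), and 0 to 9 with a library left out. The median between the lines reversed to 0.19 on column sums alone and was −0.28 with the GC trend removed, with or without that replicate. Column sums alone add a shift of all genes, given above, and leaving out R1 −Met+Hcy replicate 3 lowers the shared spread. The cause of the other changes was not tested. Low counts limit SLC16A3, PFKFB4 and H6PD.

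The labels number the replicates but do not say whether the numbers pair the libraries. Deviations of same-numbered libraries correlated from −0.718 to 0.595. They were over 0.1 in 6 of 18 such pairs, against 14 of 36 pairs with different numbers. Of the 12 libraries, 5 correlated best with their own number. These values are a hint from the data and not from the design, and cannot settle whether the libraries were paired. With the replicate block, lower members in HEK293T numbered 2 (ALDOA, LDHB and TALDO1 were lost), PGK1 was lost between the lines in +Met, and the SLC2A14 difference of responses did not pass, leaving 0 members.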

Other observations

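Many glycolysis genes also belong to the response to low oxygen, so a list of 20 hypoxia-inducible genes outside the pathway was counted beside them, of which 19 were tested. In HEK293T cells 4 passed as higher in −Met+Hcy and none as lower (edgeR, 4 lower at an unadjusted p under 0.05), and without R1 −Met+Hcy replicate 3 the counts were 5 and 4. Over all genes the shares at an adjusted p under 0.05 were 4.25% higher and 2.78% lower, and 15.2% and 12.5% without that library. No share of all genes is given for the unadjusted count. The list's median log2 fold change was 0.27, against −0.45 for the 34 members and 0.03 for all genes. VEGFA, an angiogenic growth factor, rose by 1.16 (adjusted p = 0.0209), from 12.9 to 17.3 CPM up to 36.7 to 45.7 CPM. STC2, a secreted glycoprotein, rose by 1.95 (adjusted p = 0.0165), LOX, a collagen cross-linking enzyme, by 1.23 (adjusted p = 0.00937) and BHLHE40, a transcriptional repressor, by 1.35 (adjusted p = 0.0236). CA9, carbonic anhydrase 9, was at 0 counts in all 12 libraries. In R1 no gene of the list passed in either direction by edgeR, and none did so at an unadjusted p under 0.05. Between the lines in +Met, NDRG1 was lower in R1 by 1.38 (adjusted p = 0.00129), at 14 to 19.3 CPM against 32 to 38.2 CPM in HEK293T.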
